A study of Mus musculus with 2 samples.

Results

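Granulosa cells of the newborn mouse ovary that carried at least 3 of 6 marker transcripts, Amh and Inhbb among them, were followed in 2 single-cell RNA-seq libraries. The cells came from ovaries of CD1 mice, an outbred strain, taken whole 2 days after birth. Each library was prepared from 6 ovaries of 3 pups of one female on the 10x Genomics Chromium system, in which a unique molecular identifier (UMI) marks each captured transcript. No treatment or genotype was compared, and the pups of a library were pooled. The tests below set members against other cells of the same 2 libraries, paired by library only where stated. Replicate 1 held 4094 cells with 54471790 UMIs and replicate 2 held 4847 cells with 59074480 UMIs.

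Granulosa cells are the somatic cells that surround the oocyte. In the perinatal mouse ovary most of them lie flat around the oocytes of resting primordial follicles, while a first wave of follicles in the medulla starts to grow soon after birth, and its granulosa cells become cuboidal and divide. Growing follicles are known for anti-Müllerian hormone, encoded by Amh, and for the inhibin and activin subunits encoded by Inha, Inhba and Inhbb, which are dimeric ligands of the TGF-β family that act on the pituitary and within the follicle.

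A cell was retained when 500 genes or more were detected in it and mitochondrial UMIs did not exceed 10%. A cell counted as granulosa when at least 3 of Foxl2, Fst, Wnt6, Kitl, Inha, Irx3 and Kctd14 were detected at 0.1% of its UMIs or more in sum, with limits on the stromal transcripts Col1a2 and Dcn, the germ cell transcripts Ddx4, Dazl and Ooep, and the mesothelial transcript Upk3b. Among 1616 and 565 granulosa cells in replicates 1 and 2, members were those with at least 3 of Amh, Inhbb, Hsd3b1, Kazald1, Slc18a2 and Tnni3 detected and fewer than 3 of the cell cycle genes Mki67, Top2a, Pclaf, Tk1, Rrm2 and Pbk. This gave 630 members in replicate 1, or 39.0% of its granulosa cells (95% exact binomial interval 36.6 to 41.4), and 125 in replicate 2, or 22.1% (18.8 to 25.8). In all, 755 of 8941 cells were members. The intervals cover counting error only, and cells of a library are not replicates of it. Of the cell barcodes, 21 occurred in both libraries, 4 of them among the members of replicate 1 and 0 among those of replicate 2. The values of the 25 genes that the rule reads are descriptions without a test.

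The markers fall into ligands, enzymes and transporters, and proteins known from other tissues. Amh (chromosome 10, 80805243 to 80807648, GRCm38) encodes anti-Müllerian hormone. In the summed members it stood at 179 CPM in replicate 1 (UMIs of the gene per 1000000 UMIs of all genes) and at 67.0 CPM in replicate 2, against 11.2 and 1.62 CPM in the other granulosa cells that were not cycling. Inhbb (chromosome 1, 119415465 to 119422248), the βB subunit of inhibin B and activin B, stood at 69.7 and 63.0 CPM against 11.8 and 13.3 CPM. Thus Amh differed more between the libraries than Inhbb did.

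Hsd3b1 (chromosome 3, 98852194 to 98859794) encodes a 3β-hydroxysteroid dehydrogenase of steroid synthesis. Its level was 153 CPM in replicate 1 and 85.2 CPM in replicate 2, against 12.9 and 5.41 CPM. Slc18a2 (chromosome 19, 59260896 to 59296012), the vesicular monoamine transporter, reached 230 and 155 CPM against 50.2 and 11.1 CPM. Kazald1 (chromosome 19, 45075241 to 45079289), a secreted protein with a Kazal-type domain, was the most abundant marker at 293 and 238 CPM. It also had the highest level of the 6 in the other non-cycling granulosa cells, at 82.5 and 72.3 CPM. Tnni3 (chromosome 7, 4518305 to 4524229), better known as the troponin I of heart muscle, reached 192 and 175 CPM against 38.4 and 67.4 CPM.

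**Figure D1:**
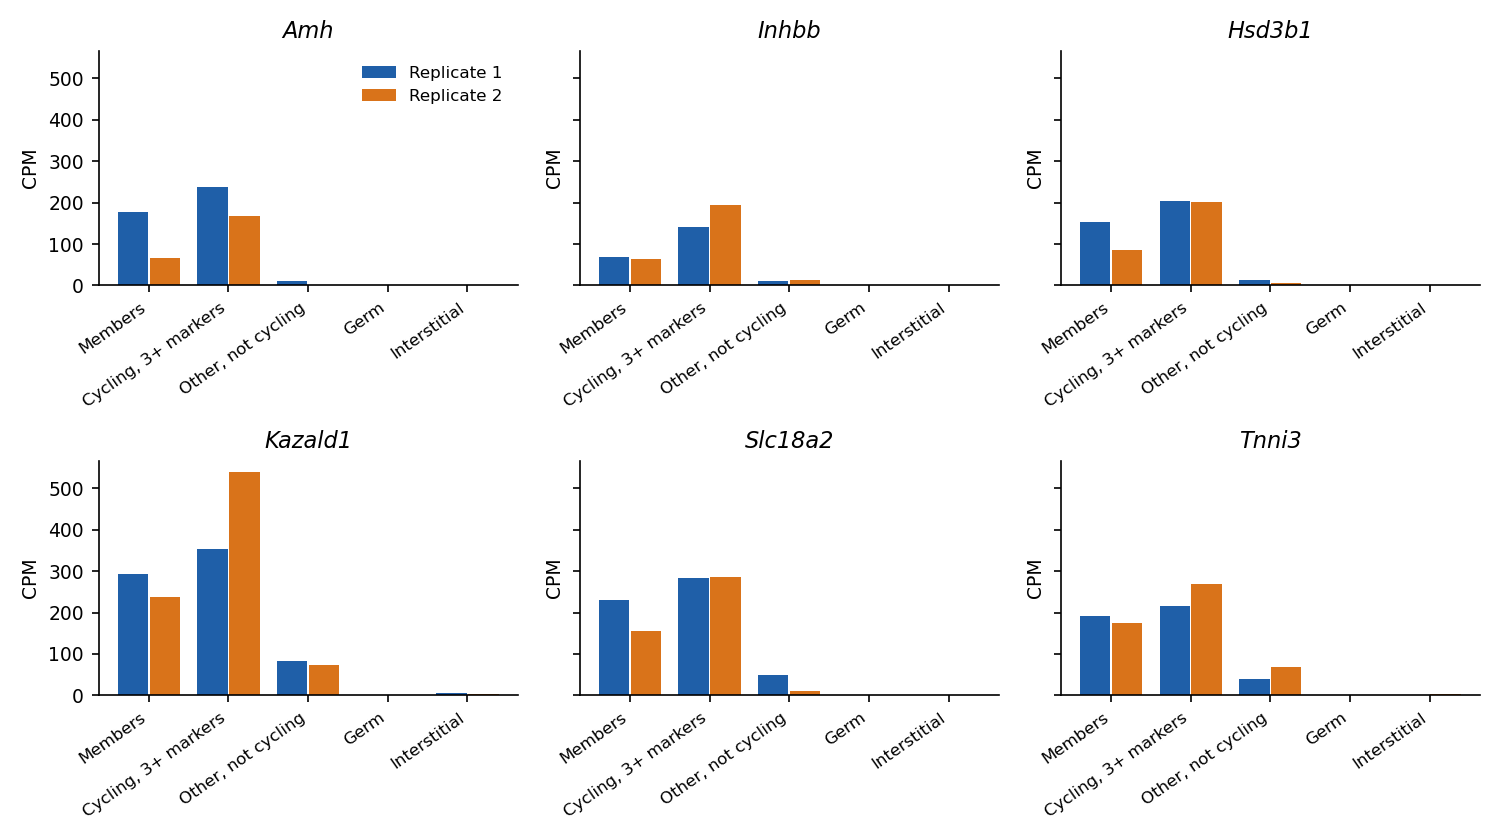
Levels of the 6 markers in summed cells of 5 classes, in CPM on a linear axis, with 1 bar per library. For each marker both libraries were highest in cycling granulosa cells with 3 or more markers, followed by members, and bars of germ and interstitial cells lay near 0 (at most 5.74 CPM).

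Detection in single cells depended on depth. An Amh UMI was present in 69.4% of the members of replicate 1 and in 40.8% of those of replicate 2. With each cell thinned to 2000 UMIs, which left out 1 member of replicate 2, the shares were 27.0% and 16.9%. In the other non-cycling granulosa cells the share was 2.16% in replicate 1. In replicate 2 it was 0 of 355 cells, which allows a share with a UMI of up to 0.845% at this depth. In interstitial cells, which should lack Amh, 0.0752% of cells in replicate 1 carried one at this depth. At their own depth, with median UMI counts of 6460 and 4916 per cell, 0.299% and 0.0413% of interstitial cells had an Amh UMI. An Amh UMI counts towards membership, so the shares in members are raised by the rule. Among non-cycling granulosa cells with 3 or more of the other 5 markers, 64.1% and 36.2% carried one at their own depth.

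Each marker was also measured in cells chosen by the other 5 markers alone, a choice that its own UMIs did not enter. Non-cycling granulosa cells with 3 or more of the other 5 markers held Amh at 178 CPM in replicate 1 and 64.6 CPM in replicate 2. Cells with none of the other 5 held it at 10.2 CPM in replicate 1. In replicate 2, 0 of the 138 such cells carried an Amh UMI, which allows a share with a captured UMI of up to 2.17%. This limits detection only, since their median was 6928.5 UMIs against 13972 in the cells with 3 or more. Inhbb stood at 67.3 and 65.8 CPM against 16.7 and 12.8 CPM, and Hsd3b1 at 142 and 83.3 CPM against 14.2 and 17.1 CPM. Slc18a2 stood at 239 and 149 CPM against 54.0 and 12.4 CPM. In both libraries each of these markers thus stood higher where its companions were detected. The markers were chosen as a set with earlier results of these data known. These values describe that choice, and nothing further is concluded from them.

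The name of a growing follicle cell could be checked only through transcripts, since dissociation removes the position of a cell. The follicle-stimulating hormone receptor gene Fshr, which marks granulosa cells of later growing follicles, gave 11 and 1 UMIs in all members. The 6 markers were not detected together in most cells. Of the members, 217 in replicate 1 (34.4%) and 59 in replicate 2 (47.2%) carried 3 markers, and 73 and 13 carried all 6. No Amh UMI was found in 193 members of replicate 1 and 74 members of replicate 2. In replicate 2 these members without Amh were deeper (median 16875.5 UMIs against 9508 with Amh). Their summed level of Colec11, a gene of pregranulosa cells, was 193 CPM against 89.2 CPM. The members of replicate 2 with exactly 3 markers, just inside the rule, held Amh at 10.9 CPM and Hsd3b1 at 6.94 CPM. Those with 2 markers, just outside it, held them at 4.70 and 1.57 CPM. In replicate 1 the corresponding Amh levels were 70.6 and 22.2 CPM. Members are called here by their genes and not by a follicle stage.

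Promoter sequence was searched for 2 motifs bound by factors that granulosa cells express, the NR5A monomer motif CAAGGTCA (reverse TGACCTTG) and the GATA motif AGATAA (reverse TTATCT). RefSeq promoters on GRCm38.p6, from 250 bases before to 50 after each start, were available for 5 of the 6 markers and not for Amh. CAAGGTCA was in none of these 5 genes, and 1.56% of 32851 promoters held it. AGATAA, held by 11.2% of all promoters on either strand, was found in Hsd3b1 and Slc18a2 and in Nr5a2, a gene taken up after its level in members was seen. All matches read TTATCT on the gene strand, and the letters of the motifs do not overlap in these promoters. The stretches around the matches are shown because they hold the only matches among these genes. They are printed 5′ to 3′ on the gene strand with the motif in capitals, and all lie upstream of the start. A match is a string of letters and not a measured binding site.
Hsd3b1, chr3:98859883-98859968, minus strand, motif starting 134 bases before the start: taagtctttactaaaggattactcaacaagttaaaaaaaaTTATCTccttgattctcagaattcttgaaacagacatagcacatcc
Slc18a2, chr19:59260628-59260693, plus strand, motif starting 230 bases before the start: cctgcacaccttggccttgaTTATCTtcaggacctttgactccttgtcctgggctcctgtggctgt
Nr5a2, chr1:136960603-136960698, minus strand, motifs starting 217 and 200 bases before the start: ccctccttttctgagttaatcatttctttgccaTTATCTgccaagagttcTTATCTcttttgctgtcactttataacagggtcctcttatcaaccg

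Cells with 3 or more markers were more often cycling than cells with fewer. This is given as a description, since the rule reads both sets of genes. Among granulosa cells with 3 or more markers, 3 or more of the 6 cycle genes were detected in 188 of 818 cells of replicate 1, or 23.0% (interval 20.1 to 26.0). In replicate 2 it was 66 of 191 cells, or 34.6% (27.8 to 41.8). Among cells with fewer than 3 markers the shares were 1.13% (0.517 to 2.13) and 3.21% (1.67 to 5.54). Below 3 markers the share did not rise with their number in replicate 2, at 4.17%, 3.55% and 1.12% with 0, 1 and 2. With all 6 markers, 52.9% of 155 cells and 65.8% of 38 cells were cycling. These 188 and 66 cells were left out of the members by the rule and were deeper than the members, with median UMI counts of 15907 and 17752 against 10830 and 12496. With each cell thinned to 2000 UMIs, the shares were 6.72% and 11.6% with 3 or more markers against 0.377% and 1.63% with fewer. At that depth at least 1 cycle gene was found in 24.6% and 35.8% of cells with 3 or more markers, and in 2.64% and 4.90% of the others. No test across the libraries was made.

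**Figure D2:**
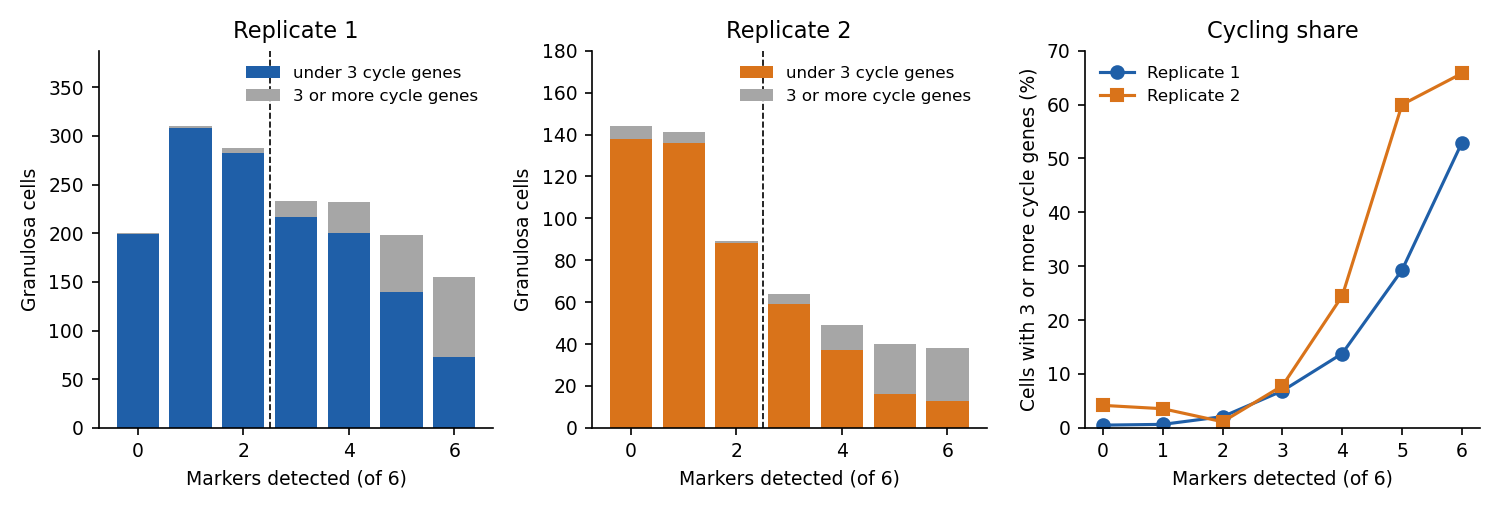
Granulosa cells by the number of the 6 markers detected, per library (left and middle, cell counts), and the share of them with 3 or more cycle genes (right, percent). Coloured bars right of the dashed line are the members, and the cycling share was highest, at 52.9% and 65.8%, in cells with all 6 markers.

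The cycling cells held the markers at still higher levels than the members. Amh stood at 238 and 167 CPM, Inhbb at 141 and 193 CPM, and Inha at 1358 and 1796 CPM. Because they belong to the other granulosa cells under the rule, that reference held marker transcripts too, with Amh at 79.9 and 43.4 CPM and Inhbb at 50.8 and 58.6 CPM. Levels in members were therefore compared with all other granulosa cells, as the rule states, and with the other granulosa cells that were not cycling, 789 in replicate 1 and 362 in replicate 2.

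Members were deeper than the non-cycling others, and the part of depth in the results was not tested beyond thinning. Median UMI counts were 10830 and 12496 per member against 8255 and 7763 in the non-cycling others. At 2000 UMIs per cell the classes held similar numbers of genes, with medians of 1091 and 1081 in members and 1096 and 1069 in the others. The mitochondrial share was 4.07% and 4.64% in members and 4.28% and 4.84% in the others. Transcripts of other cell types were compared between the classes. The 12 germ cell markers summed to 51.3 and 62.5 CPM in members against 59.6 and 96.4 CPM in the non-cycling others, led by Sohlh1 and Ooep in the members, with Ddx4 at 0.367 CPM in replicate 1. The 10 interstitial markers summed to 157 and 238 CPM against 201 and 276 CPM, led by Col3a1. The 6 mesothelial markers summed to 440 and 670 CPM against 584 and 1210 CPM, nearly all from Lgals7. At 436 and 656 CPM in members, Lgals7 lay above each of the 6 markers that define members. It stood at 26.7 and 16.0 CPM in germ cells and at 37.7 and 45.8 CPM in interstitial cells. Its level in mesothelial cells was not measured, so this sum does not show mesothelial transcripts in granulosa cells. The 5 erythroid markers summed to 251 and 37.8 CPM against 920 and 1827 CPM, and 1 member of replicate 1 held 90.5% of the haemoglobin UMIs of its class. The 6 immune markers summed to 1.84 and 2.02 CPM, and the endothelial, perivascular and theca lists to at most 27.2 CPM in members.

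UMIs were summed per library and class and tested with edgeR's quasi-likelihood test over all genes that passed the filter. A gene was called when its Benjamini-Hochberg adjusted p was under 0.05 and its change over 2-fold. Against all other granulosa cells, 36 of 12374 genes (0.291%) were lower in members and 0 (0%) were higher. At an unadjusted p under 0.05 the counts were 523 and 192, and DESeq2 called 89 lower and 1 higher. The 36 include the 6 cycle genes of the rule. Of the 8 further genes that met the naming rule, the largest changes were those of Cenpf (−2.98 on the log2 scale, SE 0.24, adjusted p = 0.0122), Ube2c (−2.94, SE 0.22, adjusted p = 0.0122) and Cdk1 (−2.56, SE 0.25, adjusted p = 0.0254). Birc5, Gmnn, Hmgb2, Cks2 and Cenpa followed. All but Hmgb2 and Cks2 are on the fixed list of 18 other cell cycle genes, of which 8 were lower in this fit. The rule removes cycling cells from the members and leaves them in the reference, so nothing is read from these falls. In the paired fit without cycling cells in the reference, Birc5, Cenpa and Cenpf were higher in members, Cenpf through replicate 1 alone.

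Both classes of a library come from the same animals and the same droplet run, so the library was also fitted as a replicate block. With this pairing, 20 genes (0.162%) were higher and 338 (2.73%) lower than in all other granulosa cells. On adjusted p alone it was 312 (2.52%) and 655 (5.29%), of which the rule reads 7 and 8. Against the non-cycling others, the pairing gave 201 of 11993 genes higher (1.68%) and 269 lower (2.24%). The rule reads 9 of these higher genes and 1 of the lower ones, which follow from the selection. They stay in the counts and shares below. On adjusted p alone the pairing gave 518 (4.32%) and 650 (5.42%) against the non-cycling others, of which the rule reads 11 and 2. Without the block, 2 genes were higher (0.0167%), Inha and Inhbb, which the rule reads, and 0 were lower (0%), with 468 and 541 at an unadjusted p under 0.05. The calls described next thus rest on the paired fit, which has 1 residual degree of freedom before the spread is pooled across genes. It was added after the data were seen. An unpaired contrast against the 200 and 144 granulosa cells with none of the markers called 34 of 10050 genes higher (0.338%), 7 of them read by the rule, and 24 lower (0.239%), and is given where it also called a gene.

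The calls of the higher genes also rest on the reference without cycling cells. Of the 201 and 269 genes, the paired fit against all other granulosa cells also called 15 (7.46%) and 134 (49.8%). Of the higher genes described next other than the cell cycle genes, Dhh and Sfrp4 alone were called there. Nr5a2 (0.59, adjusted p = 2.18e-04), Hsd17b1 (0.71), Esr2 (0.92), Gja1 (0.52), Oaf (0.50), Ephx2 (0.53), Apoa1 (0.42) and Calb1 (0.78) were higher there on adjusted p alone. The changes of Hsd17b7 (adjusted p = 0.260), Prlr (0.228), Ihh (0.937) and Hk2 (0.229) did not pass. Of the lower genes, Gng13, Lgr5, Krt19, Lef1, Igfbp3, Nr0b1, Nid2, Krt18, Mt2, Mt1, H19 and Aldh1a2 were called there too, whereas Lhx9, Colec11, Axin2, Igfbp2, Igfbp6, Cxcl2, Icam1, Tnfaip3 and Ccnd1 were lower on adjusted p alone.

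Among the higher genes, Nr5a2 led the granulosa transcription factors. It encodes the nuclear receptor LRH-1, which is required in granulosa cells for ovulation. It stood at 82.9 CPM in members against 16.3 CPM in the non-cycling others of replicate 1, and at 62.0 against 18.4 CPM in replicate 2 (log2 change 2.11, SE 0.16, adjusted p = 7.33e-09 with the block and 0.107 without). It was also called against cells with none of the markers (2.81, adjusted p = 0.0351). With members taken at 2 or more markers, against all the remaining granulosa cells and without the block, its change was −0.028. Of the 14 tested transcription factors of the fixed list, 1 rose and 2 fell, with a median log2 change of −0.26 against −0.01 over all genes tested. The 2 that fell were Lhx9, a LIM homeobox factor of the early gonad (61.1 against 126 CPM, and 57.4 against 119 CPM), and Nr0b1, which encodes the repressor DAX1 (5.14 against 15.2 CPM, and 5.54 against 16.5 CPM). Wt1 passed on adjusted p alone at −0.45. Nr5a1, the close relative of Nr5a2, stood at 94.8 against 92.7 CPM in replicate 1 and 93.7 against 60.9 CPM in replicate 2 (adjusted p = 0.284).

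Inhba, the βA subunit of inhibin A and activin A, was higher in both libraries. It stood at 56.1 CPM in members against 11.7 CPM in replicate 1 and at 19.7 against 3.52 CPM in replicate 2 (log2 change 2.30, SE 0.20, adjusted p = 4.21e-08 with the block and 0.393 without). Its α partner Inha, which the rule reads, reached 1196 and 1247 CPM against 368 and 323 CPM. Of the 19 tested genes of the AMH, inhibin and activin list that the rule does not read, Inhba alone was called, with a list median of 0.07, and against all other granulosa cells with the block 0 were called (Inhba 0.91, adjusted p = 5.30e-05). Amhr2, the receptor of AMH, was at 548 and 536 CPM in members and 590 and 574 CPM in the others, and did not pass (−0.12, adjusted p = 0.591). This receptor was thus abundant in both classes.

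In the steroid synthesis list, 2 of 8 tested genes rose and 0 fell, with a median log2 change of 0.32. Hsd17b1, which converts estrone to estradiol, stood at 78.6 against 21.3 CPM in replicate 1 and 44.9 against 7.04 CPM in replicate 2 (2.08, SE 0.17, adjusted p = 2.55e-08). Hsd17b7 stood at 10.8 and 10.1 CPM against 4.60 CPM in either library. The aromatase gene Cyp19a1 was scarce, with 27 and 4 UMIs in all members, and did not pass (adjusted p = 0.258). Cyp11a1, which starts steroid synthesis from cholesterol, had 4 and 0 UMIs in members and was not tested. Of the 18 cholesterol genes, 0 were called, 5 were higher on adjusted p alone, and the median was 0.37. Sqle, squalene epoxidase, is an example at 51.1 against 29.4 CPM and 32.3 against 15.7 CPM.

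Hormone receptor genes were also among the higher genes. Esr2, the estrogen receptor β of granulosa cells, stood at 63.3 against 24.7 CPM in replicate 1 and 51.4 against 11.9 CPM in replicate 2 (1.59, SE 0.17, adjusted p = 9.31e-07). Prlr, the prolactin receptor, was called higher as well and rested on 49 and 9 UMIs in members. Esr1, estrogen receptor α, went the other way without reaching 2-fold in the fit, at 15.1 against 29.8 CPM and 29.7 against 52.0 CPM (−0.92, adjusted p = 4.76e-04). Esr2, Prlr and Esr1 did not pass without the block.

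Hedgehog ligands, which granulosa cells send to the cells around the follicle, were among the higher genes. Dhh stood at 19.6 against 1.97 CPM and 14.6 against 4.60 CPM (2.62, SE 0.33, adjusted p = 8.78e-06), and Ihh at 4.29 against 1.05 CPM and 3.53 against 0.812 CPM (2.02, adjusted p = 0.0123). Ihh rested on 35 and 7 UMIs in members and on 8 and 3 in the others, and with members taken at 2 or more markers against all the remaining granulosa cells its change was −0.18. The remaining 4 tested hedgehog genes did not pass, and the receptor gene Ptch1 stood at 43.3 against 64.8 CPM and 69.5 against 63.9 CPM. Dhh is also a marker of Sertoli cells, the testis counterpart of granulosa cells, as is Ptgds. The 5 Sertoli markers summed to 147 and 123 CPM in members against 57.8 and 56.6 CPM, most of it Ptgds. They were not particular to members, at 163 and 229 CPM in cycling granulosa cells with 3 or more markers. In germ cells they summed to 152 and 138 CPM, nearly all Ptgds. Dmrt1 had 0 UMIs in members, which allows up to 0.367 and 1.51 CPM, and Sox9 was at 26.9 and 20.2 CPM against 14.3 and 17.3 CPM.

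Of the 8 tested genes of cell junctions and oocyte contact, Gja1 alone was called. It encodes connexin 43, the gap junction protein between granulosa cells. It stood at 457 against 275 CPM in replicate 1, under 2-fold, and at 243 against 83.9 CPM in replicate 2 (1.07, SE 0.14, adjusted p = 1.28e-05).

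The other genes that met the naming rule and were higher in members have varied roles. Oaf, a secreted protein, stood at 112 against 26.0 CPM and 63.0 against 13.5 CPM (2.13, SE 0.14, adjusted p = 6.34e-10). Fgfbp3, which binds fibroblast growth factors, stood at 105 against 26.5 CPM and 75.1 against 18.1 CPM. With members taken at 2 or more markers against all the remaining granulosa cells, the changes were −0.073 for Oaf and −0.065 for Fgfbp3. Plagl1, an imprinted zinc finger gene, stood at 215 against 75.7 CPM and 121 against 36.3 CPM. Ptgds, a prostaglandin D2 synthase, stood at 100 against 41.4 CPM and 87.7 against 34.4 CPM. The list of 12 was completed by Nr5a2, Esr2, Col27a1, Fam13a, Arhgap31, Cnmd, Rasd1 and Ptpre, with fitted log2 changes of 1.26 for Ptpre to 2.11 for Nr5a2. In all, 15 higher genes passed the naming rule. Of the 12 named, Esr2 and Arhgap31 were not called in the unpaired contrast with cells with none of the markers (adjusted p = 0.0783 and 0.0828), and the other 10 were.

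**Figure D3:**
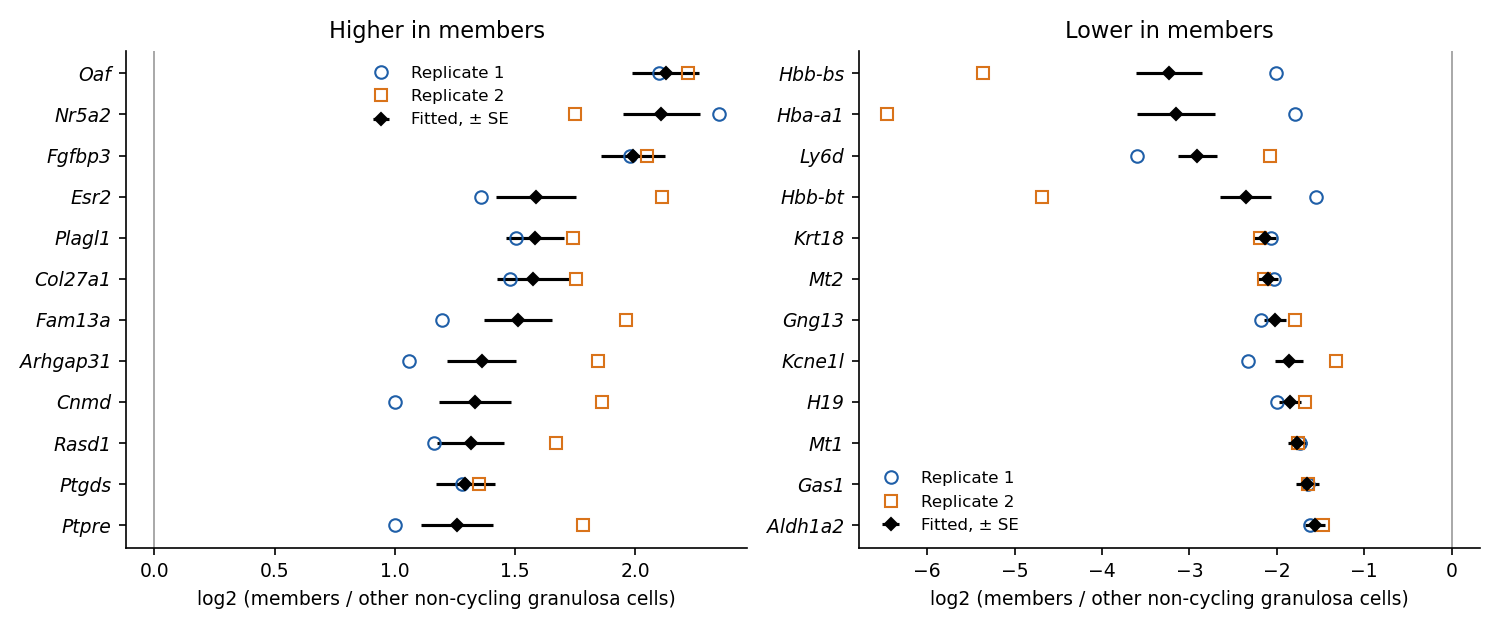
The 12 higher and 12 lower genes of largest change among those at 50 CPM or more and over 2-fold in each library, in members against other non-cycling granulosa cells, on a log2 axis. Open symbols are the 2 libraries and diamonds the paired fit ± SE; haemoglobin genes spread widest between libraries, while Oaf, Fgfbp3, Krt18, Mt2, Mt1 and Gas1 lay close together.

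Genes of a fixed list for pregranulosa cells, the precursors of granulosa cells, were mostly lower. Of the 8 tested genes of this list, 4 fell and 0 rose, with a median log2 change of −1.12. Gng13, a G protein subunit, stood at 57.7 against 262 CPM and 88.2 against 306 CPM (−2.02, SE 0.13, adjusted p = 2.70e-10 with the block and 0.125 without). Lgr5, a receptor for R-spondins, stood at 3.92 against 13.3 CPM and 7.56 against 24.6 CPM (−1.75, adjusted p = 5.62e-05). Krt19, which is also on the mesothelial list, stood at 1.35 against 10.4 CPM and 0.504 against 9.20 CPM. Gng13, Lgr5 and Krt19 were also lower in the unpaired contrast with cells with none of the markers. Colec11 was called (−1.28, adjusted p = 0.00162), yet this came from replicate 1, with 26.3 against 131 CPM, while replicate 2 had 159 against 186 CPM, and its change was 0.13 with members taken at 2 or more markers against all the remaining granulosa cells. Rspo1 passed on adjusted p alone at −0.97, with 100 against 172 CPM and 147 against 324 CPM. Aard went the other way at 0.48, with 396 against 284 CPM and 370 against 260 CPM.

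Of the 15 tested genes of the Wnt and R-spondin list, 3 fell and 1 rose, with a median of −0.49. Besides Lgr5, the targets Axin2 and Lef1 were lower. Axin2 stood at 15.1 against 35.2 CPM and 30.7 against 57.1 CPM (−1.10, adjusted p = 5.71e-05), and Lef1 at 3.80 against 15.6 CPM and 10.6 against 26.3 CPM (−1.74, adjusted p = 4.74e-05). The secreted Wnt inhibitor Sfrp4 was higher, at 14.1 against 2.63 CPM and 2.52 against 0.812 CPM. Its replicate 2 levels rested on few UMIs, out of 1984381 in members and 3693903 in the others. Of the 9 Notch genes, 0 were called, and Hes1 and Notch2 were lower on adjusted p alone, Hes1 at 927 against 1570 CPM and 519 against 777 CPM. Of the 12 genes of the insulin-like growth factor system, 3 fell, all of them binding proteins. Igfbp2, the most abundant of the 3, stood at 139 against 305 CPM and 197 against 403 CPM (−1.10, SE 0.11, adjusted p = 5.13e-07), Igfbp6 at 33.8 against 67.1 CPM and 41.3 against 90.7 CPM, and Igfbp3 at 2.45 against 11.3 CPM and 12.6 against 32.2 CPM.

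The lower genes that met the naming rule include epithelial and metallothionein genes. Krt18, an epithelial keratin, stood at 20.9 against 87.9 CPM and 52.9 against 241 CPM (−2.14, SE 0.13, adjusted p = 1.44e-10). Mt2 stood at 65.8 against 268 CPM and 146 against 644 CPM (−2.10, SE 0.12, adjusted p = 6.59e-11), and Mt1 at 169 against 563 CPM and 409 against 1390 CPM. H19, an imprinted non-coding RNA, stood at 25.5 against 102 CPM and 112 against 359 CPM. Aldh1a2, which makes retinoic acid, stood at 36.6 against 113 CPM and 94.2 against 260 CPM. Ly6d, Kcne1l and Gas1 were also among the 12. The sum of the mesothelial markers given above, nearly all Lgals7, moved in the same direction as Krt18, Krt19 and Aldh1a2. The part of mesothelial transcripts in these results was not tested. The last 3 of the 12, Hbb-bs, Hba-a1 and Hbb-bt, are haemoglobin genes with near-identical copies. Single cells decided their values, since 2 reference cells of replicate 1 held 96.8% of the haemoglobin UMIs of that class and 1 cell of replicate 2 held 97.3%. In all, 26 lower genes passed the naming rule.

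Against the non-cycling others, stress and inflammatory genes were lower or did not pass. Of the 10 tested chemokine and NF-κB genes, 3 fell, 5 more were lower on adjusted p alone and 0 were higher, with a median of −0.80. Cxcl2 stood at 28.2 against 76.7 CPM and 14.6 against 21.1 CPM (−1.24, adjusted p = 3.90e-05), under 2-fold in replicate 2. Icam1 stood at 7.71 against 19.6 CPM and 7.06 against 18.7 CPM, and Tnfaip3 at 14.6 against 45.2 CPM and 16.6 against 22.2 CPM. Cxcl1, the most abundant of those named here, stood at 370 against 782 CPM and 252 against 387 CPM. Of the 14 immediate early genes, 0 were called and 6 were lower on adjusted p alone, such as Ier3 at 176 against 347 CPM and 148 against 234 CPM. Against all other granulosa cells with the block, 2 of the 14 were higher and 2 lower on adjusted p alone, with a median of 0.05. Over all genes tested in that fit the shares were 2.52% and 5.29%. Of the 10 heat shock genes, 0 were called.

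Cell cycle genes outside the rule were compared in cells that both had fewer than 3 of the 6 cycle genes. The classes were still not matched for those 6, which summed to 29.9 and 31.2 CPM in members against 11.3 and 13.5 CPM. Of the 18 other cycle genes, 4 rose and 0 fell, with a median of 0.79. Cenpa stood at 26.3 against 3.15 CPM and 25.2 against 7.31 CPM (2.49, SE 0.27, adjusted p = 1.24e-06). Birc5 stood at 24.1 against 9.06 CPM and 28.2 against 16.0 CPM, under 2-fold in replicate 2. Cenpf stood at 8.45 against 1.58 CPM in replicate 1 and at 5.04 against 5.14 CPM in replicate 2, so its call came from replicate 1. These genes move with those the rule reads and are values only. Of the 9 tested cyclins and inhibitors, Ccnd1 fell (4.90 against 9.46 CPM, and 23.2 against 47.6 CPM), and Ccnd2, the cyclin D of granulosa cells, was higher on adjusted p alone at 1070 against 825 CPM and 1150 against 903 CPM. Cdkn1a, which encodes the inhibitor p21, was lower on adjusted p alone, at 17.4 against 40.5 CPM and 20.2 against 29.0 CPM.

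The study examined this age for transcripts of long-lived ovarian proteins. Of the 4 granulosa genes listed from it, which were chosen on these libraries and are no independent evidence, 2 were higher in members. Ephx2, soluble epoxide hydrolase, stood at 131 against 70.7 CPM and 123 against 52.5 CPM (1.02, SE 0.12, adjusted p = 4.30e-06), and Apoa1 at 86.0 against 43.1 CPM and 62.0 against 25.7 CPM (1.08, SE 0.13, adjusted p = 5.41e-06). Myo1e passed on adjusted p alone at 0.59, and Cmbl stood at 201 against 195 CPM and 238 against 187 CPM (adjusted p = 0.465). Against all other granulosa cells with the block, 0 of the 4 were called and all 4 were higher on adjusted p alone. In that fit 2.52% of all genes tested were higher on adjusted p alone. Calb1, which encodes the calcium buffer calbindin, stood at 102 against 55.7 CPM and 35.8 against 12.7 CPM (1.02, adjusted p = 3.57e-05), and Serpina1a, which has near-identical copies, did not pass (adjusted p = 0.0718). Of the 14 basement membrane genes Nid2 alone was called (3.55 against 9.85 CPM, and 7.56 against 17.6 CPM), and of the 18 tested glycolysis genes Hk2 alone, at 7.35 against 3.15 CPM and 6.55 against 2.44 CPM.

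Several genes that differed in members, and were followed for that reason, changed by degrees with the number of markers and not only at the threshold of 3. In non-cycling cells of replicate 1, Nr5a2 was at 6.12 CPM with 0 markers, 24.2 CPM with 2, 56.5 CPM with 3 and 138 CPM with 6. In replicate 2 it was at 16.5 CPM with 0 markers, 11.5 CPM with 1, 27.4 CPM with 2, 27.8 CPM with 3, 84.8 CPM with 4 and 132 CPM with 6. Hsd17b1 went from 14.1 to 156 CPM and from 3.89 to 117 CPM between 0 and 6 markers. Gng13 fell from 375 to 11.4 CPM in replicate 1, and in replicate 2 from 432 CPM to 0 of 128622 UMIs, which allows up to 23.3 CPM, in the 13 cells with all 6 markers. Igfbp2 went from 401 to 82.3 CPM and from 499 to 38.9 CPM. Other genes did not follow this order up to 3 markers in replicate 2. There Colec11 stood at 138, 185, 225 and 205 CPM with 0, 1, 2 and 3 markers and Pld5 at 69.9, 84.4, 96.3 and 90.3 CPM. With 4 and 5 markers Colec11 was at 145 and 85.1 CPM and Pld5 at 44.9 and 36.5 CPM. Both had 0 UMIs in the 13 cells with all 6 markers. Cells with more markers were also deeper in replicate 1, with medians of 7903 UMIs at 0 markers and 12236 at 6, whereas in replicate 2 the median was highest at 3 markers, at 15457 UMIs.

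**Figure D4:**
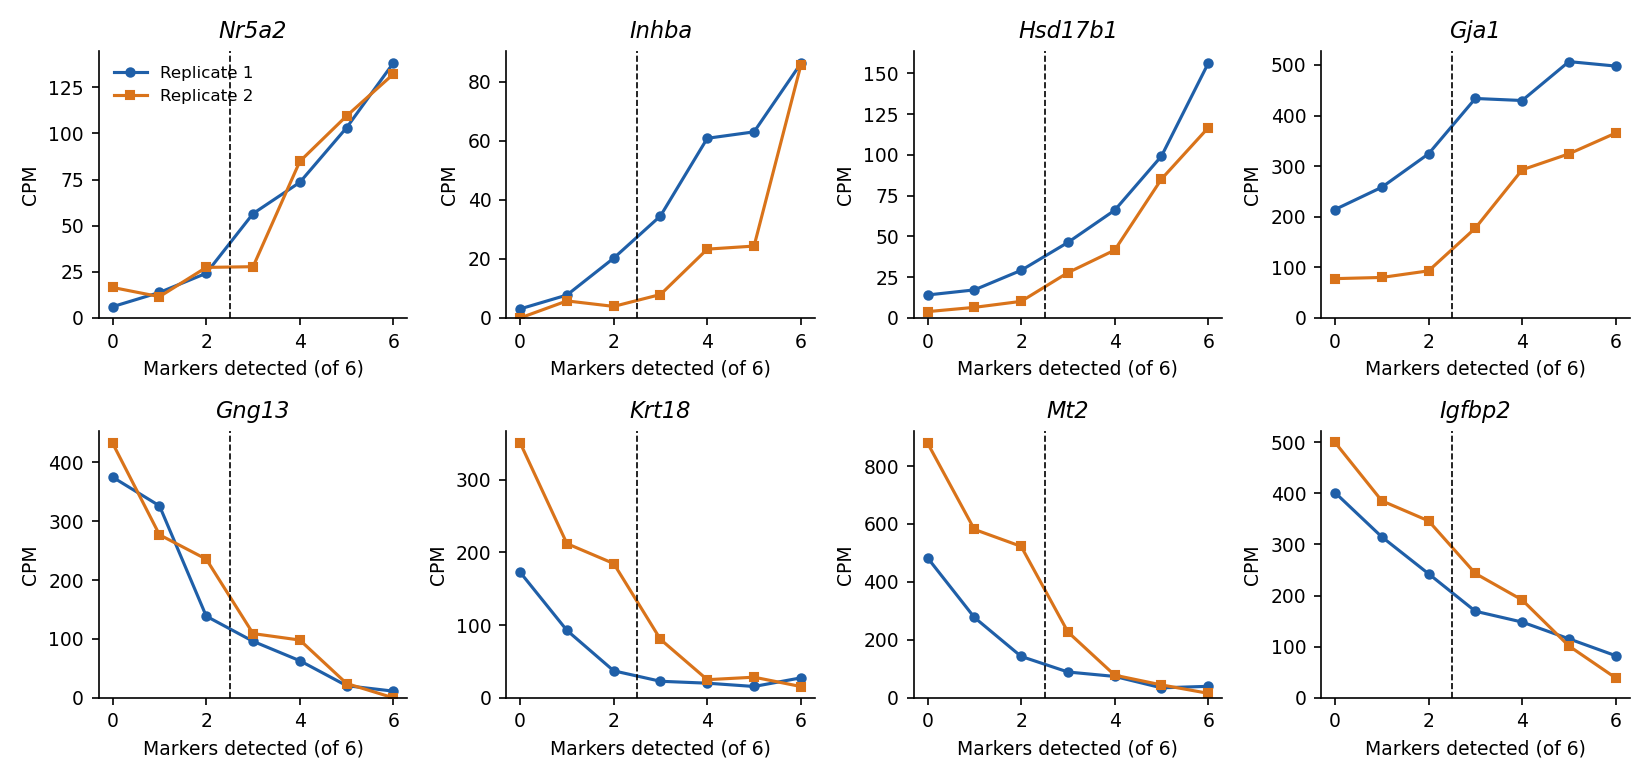
Levels in CPM of 4 genes that were higher and 4 that were lower in members, in non-cycling granulosa cells summed by the number of the 6 markers detected, with 1 line per library. The dashed line is the threshold of 3 markers; Nr5a2 and Hsd17b1 climbed to 6 markers in both libraries, and Gng13 and Igfbp2 fell.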

How the data were processed

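The deposited files hold UMI counts per gene and cell, made by the authors with Cell Ranger 3.0.2 on GRCm38 and not normalized; the study's filters are not given in the sources used here. The paper names version 3 of the kit and the labels version 2. The rule, members, lists and tests were chosen with earlier results of these data known. UMIs of each class were summed per library and tested over all genes by glmQLFit and glmQLFTest of edgeR 4.0.16 under R 4.3.3, after TMM and filterByExpr, with DESeq2 1.42.0 as an alternative. The unpaired comparison with all other granulosa cells was simulated on 13185 genes. Of 200 genes changed by 2 on the log2 scale, 93% were recovered, and 3.63% of calls were false. The simulated counts had the same spread for every gene and no difference between libraries but depth. These shares thus need not hold for the measured counts. The paired fit was not simulated. Deviations of the classes of a library correlated by 0.56 over 12374 genes; they come from the same animals and droplet run, hence the pairing. Named genes were list members, rule genes, and the 12 of largest change per direction that were called, over 2-fold in each library and at 50 CPM or more, without predicted or mitochondrial genes; this was applied to both references. Doublets (scanpy 1.11.5, Scrublet), 4 and 1 members at a score threshold of 0.225 taken from replicate 1 because the automatic one of replicate 2 was 0.521, were kept. Positions are by identifier from GENCODE. The labels call the libraries biological replicates, and p-values rest on these 2. Some results are not reported here.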

Additional observations from a re-analysis of the deposited data

How the results depend on the processing

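With 2 libraries and pooled pups, the number of calls moved with the replicate block, the reference, the filter on low counts and the rule. The number of genes higher and lower in members, 0 and 36 as first reported, was 20 and 338 with the replicate block, 1 and 89 with DESeq2, and 9 and 274 with no filter on low counts. It was 2 and 0 with a reference without cycling cells, and 201 and 269 with the replicate block added. It was 208 and 273 when haemoglobin-rich cells were also left out. With at least 2 of 6 markers 109 genes were lower and with at least 4 it was 12; the latter with the block gave 38 higher and 296 lower. A reference with none of the markers gave 34 higher. Members chosen on a random share of 0.5 of the UMIs and measured on the rest gave 0 lower, with 736 genes at an unadjusted p under 0.05, and 48 higher and 244 lower with the block. The rule at 4000 UMIs per cell gave 26 higher, and 171 higher and 494 lower with the block. Of the 201 and 269 genes of the paired non-cycling contrast, the thinned rule with the block also called 123 and 213 (61.2% and 79.2%), which were 71.9% and 43.1% of its own calls. With the block, members chosen on a random share of the UMIs shared 41 and 136 of them (20.4% and 50.6%, or 85.4% and 55.7% of its own calls), at least 4 markers 36 and 151 (17.9% and 56.1%, or 94.7% and 51.0%), and the reference of all other granulosa cells 15 and 134 (7.46% and 49.8%, or 75% and 39.6%). In 1 library alone, by fold without a test, 69 to 350 genes were higher and 576 to 683 lower. Library totals without TMM, doublets left out, adjusted p alone and a 4-fold threshold kept both counts within 1.5 times.

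Members were 56.4% and 37.7% of granulosa cells with at least 2 markers, 25.6% and 11.7% with at least 4, and 22.7% and 13.2% with the rule at 4000 UMIs. At 2000 UMIs the cycling share was 6.72% and 11.6%, and the shares of members with a UMI were 27.0% and 16.9% for Amh, 11.7% and 12.9% for Inhbb, 22.1% and 13.7% for Hsd3b1, 40.6% and 51.6% for Kazald1, 37.5% and 31.5% for Slc18a2, and 30.6% and 26.6% for Tnni3, since fewer UMIs were read.

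Reversals were found mainly for the genes named as lower against all other granulosa cells without the block. Values are log2 changes without and with the replicate block, then with haemoglobin-rich cells also left out, all against the non-cycling reference. Cenpf gave 1.19, 1.42 and 1.42, Ube2c 0.084, 0.23 and 0.25, Cdk1 0.32, 0.35 and 0.36, Birc5 1.07, 1.15 and 1.15, Gmnn 0.33, 0.45 and 0.44, Cks2 0.34, 0.38 and 0.38, and Cenpa 2.39, 2.49 and 2.49. With the rule at 4000 UMIs, without and with the block, Cenpf gave 0.45 and 0.40, Ube2c 0.12 and 0.090, Birc5 0.44 and 0.39, Gmnn 0.54 and 0.52, Hmgb2 0.063 and 0.052, Cks2 0.50 and 0.48, Cenpa 1.18 and 1.14, Hbb-bs 1.04 and 0.85, Hba-a1 1.26 and 1.04, and Hbb-bt 2.57 and 2.74. Cenpa gave 1.44 against cells with none of the markers. With at least 2 markers, Nr5a2 gave −0.028, Oaf −0.073, Fgfbp3 −0.065, Ihh −0.18 and Colec11 0.13, against a reference made up of cycling cells and of cells with under 2 markers. The cause of these reversals was not tested.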

Other observations

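The libraries differed in what surrounded the members. Granulosa cells were 43.2% of the retained cells in replicate 1 and 12.7% in replicate 2, and members were 16.9% and 2.80%. Within members, Amh stood at 179 and 67.0 CPM and Gja1 at 457 and 243 CPM, whereas Inha stood at 1196 and 1247 CPM and Tnni3 at 192 and 175 CPM.

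Among the granulosa genes of the rule, Irx3 was at 95.1 and 168 CPM in members against 228 and 291 CPM in the other non-cycling granulosa cells, and Fst at 834 and 468 CPM against 590 and 246 CPM. Foxl2 was at 301 and 376 CPM against 386 and 345 CPM, in opposite order in the 2 libraries.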
